A study of Saccharomyces cerevisiae with 20 samples.

Results

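W303 and CEN.PK2, laboratory strains of the budding yeast Saccharomyces cerevisiae, were compared gene by gene in the 4 W303 and 4 CEN.PK2 libraries of a set of 20 libraries from 5 strains. All columns labelled with either strain were taken, and every gene of the count table entered. Both strains are MATa (mating type a) and carry mutant alleles of the same synthesis genes. For histidine these are his3-11,15 in W303 and his3Delta1 in CEN.PK2, for uracil ura3-1 and ura3-52, for tryptophan trp1-1 and trp1-289, and for leucine leu2-3_112 in both, spelled with a comma in the W303 label. W303 also carries can1-100 in the arginine permease gene CAN1, and the CEN.PK2 label adds MAL2-8c and SUC2. The study's text gives the strains as W303-1A and CEN.PK2-1c. Cultures grew without treatment in synthetic complete medium with glucose at 30 °C and were harvested in early exponential phase. RNA was copied and amplified by the Smart-seq2 protocol, which makes full-length cDNA from polyadenylated RNA, and was sequenced as 75-base single-end reads. The labels do not say whether libraries of a strain came from separate cultures, so p-values measure the spread between these libraries, which may be technical.

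In yeast, genes that take up and break down poor nitrogen sources are kept low while good sources such as glutamine or ammonium are plentiful, a regime called nitrogen catabolite repression. GATA-type zinc-finger proteins act on these genes: Gln3 and Gat1 activate them, Dal80 and Gzf3 repress them, and Ure2 holds Gln3 in the cytoplasm. Their targets include the general amino acid permease Gap1, the ammonium permeases Mep1, Mep2 and Mep3, the proline permease Put4 and the enzymes that degrade allantoin, proline and arginine.

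GATA factors bind the core GATAAG. The sequences upstream of the 4 genes of the nitrogen and permease lists with the smallest adjusted p are shown, since the contrast was widest in them. Each is 300 bases of the S288C reference genome (build R64, RefSeq), from 350 to 51 bases before the start codon on the strand of the gene, with GATAAG on either strand in capitals. The windows are GAP1 at chrXI:514713-515012 (plus strand), MEP2 at chrXIV:357103-357402 (plus), DAL80 at chrXI:506548-506847 (plus) and DAL3 at chrIX:415668-415967 (minus).
GAP1: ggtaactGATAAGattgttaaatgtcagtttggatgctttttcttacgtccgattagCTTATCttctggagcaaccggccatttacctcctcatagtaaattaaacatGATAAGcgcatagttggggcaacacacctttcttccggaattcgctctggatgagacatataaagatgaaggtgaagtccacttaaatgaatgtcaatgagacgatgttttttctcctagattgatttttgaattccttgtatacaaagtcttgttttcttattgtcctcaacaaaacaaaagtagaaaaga
MEP2: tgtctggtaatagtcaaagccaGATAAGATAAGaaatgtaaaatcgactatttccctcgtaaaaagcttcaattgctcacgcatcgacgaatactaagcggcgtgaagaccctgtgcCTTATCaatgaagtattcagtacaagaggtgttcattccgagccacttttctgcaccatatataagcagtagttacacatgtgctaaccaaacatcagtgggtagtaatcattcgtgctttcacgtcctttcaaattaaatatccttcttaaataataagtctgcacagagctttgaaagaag
DAL80: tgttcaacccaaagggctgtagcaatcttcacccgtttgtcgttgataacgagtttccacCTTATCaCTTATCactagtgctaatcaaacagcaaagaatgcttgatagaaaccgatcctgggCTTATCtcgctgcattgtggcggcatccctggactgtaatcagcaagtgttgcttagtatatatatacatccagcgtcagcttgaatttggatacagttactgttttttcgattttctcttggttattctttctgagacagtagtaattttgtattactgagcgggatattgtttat
DAL3: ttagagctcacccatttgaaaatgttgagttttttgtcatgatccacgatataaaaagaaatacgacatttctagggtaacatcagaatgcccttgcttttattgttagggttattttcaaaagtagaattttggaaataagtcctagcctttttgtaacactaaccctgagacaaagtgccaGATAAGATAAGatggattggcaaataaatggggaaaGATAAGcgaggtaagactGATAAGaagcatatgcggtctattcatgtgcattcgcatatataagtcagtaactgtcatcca
The windows of GAP1, MEP2 and DAL80 hold 3 matches each and that of DAL3 holds 4, where neighbouring matches in MEP2 and DAL3 share 1 base. Of 5748 windows of the same kind, 14.6% held at least 1 match and 1.6% at least 2. A match was found upstream of 10 of the 11 genes of the nitrogen list that were higher in W303, with 2 or more in 8, and upstream of 14 of the 19 that were not called, with 2 or more in 7. The called gene without a match was GLN3. Of the amino acid permease genes, 3 of the 4 called and 3 of the 16 not called had a match, and PUT4 was the called one without. These are letters of the reference strain and not of W303 or CEN.PK2, and a match is a description, not a binding site.

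The libraries differed in depth and in how well they resembled their own strain. Total counts were 1945194 to 22979469 in W303 and 1311322 to 19722480 in CEN.PK2. CPM are each gene's counts scaled to a common library total. For the log2 CPM of the correlations and slopes here, totals were also scaled by edgeR's TMM factors, with a prior count of 2. The shallowest library was CEN.PK2 replicate 2. Its log2 CPM had a correlation over genes of 0.949 with W303 replicate 3, against 0.934, 0.913 and 0.824 with CEN.PK2 replicates 1, 3 and 4. The library numbers of CEN.PK2 replicate 2 and W303 replicate 3 are neighbours. CEN.PK2 replicate 4 also stood apart, with correlations of 0.903 and 0.92 with replicates 1 and 3, and it was the only one of the 8 numbered from 74. Its deviation from the mean of the 20 libraries (log2 CPM) fell by 0.337 with each doubling of exon length, against slopes of -0.0435, 0.115 and -0.0214 in CEN.PK2 replicates 1, 2 and 3 and of 0.0941 to 0.207 in W303. Calls without single libraries, with thinned counts and after a gene length correction are given below. The causes of these differences were not tested. Markers were checked against the MATa label: the a-factor genes MFA1 and MFA2 were at 54.4 to 178 and 138 to 432 CPM over the 8 libraries, and the alpha-factor receptor gene STE2 at 46.2 to 604 CPM. Of the 5 alpha-specific genes, STE3, SAG1, MF(ALPHA)1 and MF(ALPHA)2 were at 8.39 CPM or less and AFB1 at 8.65 to 13.0 CPM. D273-10B differed in these markers, with MF(ALPHA)1 at 2300 to 7030 CPM and STE2 at 1.47 to 5.17 CPM. BY4741 and RM11-1a held LEU2 at 0.0 CPM in every library. The other strains are thus not matched to W303 and CEN.PK2 in mating type markers and genotype. How far this affects comparisons with them was not tested. None of the 7 a-specific genes passed the test, and of the alpha-specific genes MF(ALPHA)1 was lower in W303 (1.204 to 2.22 against 3.80 to 5.09 CPM; log2 fold change -1.72, adjusted p by edgeR 0.0462), a call that ended without any 1 of 15 libraries, among them all 4 of W303 and CEN.PK2 replicates 1, 3 and 4 (adjusted p up to 0.181), and in a fit that blocks by library series, taken from how the library numbers begin (0.0807).

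Of 6119 genes tested, 161 (2.63%) passed edgeR's quasi-likelihood test (Benjamini-Hochberg adjusted p under 0.05). In W303, 72 genes (1.18%) were higher and 89 (1.45%) lower, and 158 of the calls were at least 2-fold. The 4 W303 and 4 CEN.PK2 libraries did not overlap for 144 of the called genes and for 12.4% of all genes tested. The largest rises and falls named below were chosen among called genes that did not overlap, so their separation is given by that choice. The median log2 fold change (W303 minus CEN.PK2) was 1.95 among the higher and -1.72 among the lower genes, and 16 higher and 10 lower genes passed 8-fold. An unadjusted p under 0.05 was reached by 1283 genes.

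Leaving out CEN.PK2 replicate 2 gave 398 calls among 6193 genes (6.43%), 229 of them higher (3.7%) and 169 lower (2.73%) in W303. They included 156 of the 161, and all 161 kept their direction, in a fit that shares all its libraries with the first. The 5 genes no longer called were SOR2, SPR6, YHR033W, AQY2 and YLL053C. Of the 59 called genes that the naming rule picked, AQY2 was the only one lost. In 212 of the 229 genes called higher without it, the level of replicate 2 lay above the other 3 CEN.PK2 libraries, on the side of W303, and in 101 it lay within the W303 range. Among the 169 called lower, replicate 2 lay within the range of the other 3 in 60 and beyond them on the side of W303 in 68. The genes were chosen because the other 3 CEN.PK2 libraries differed from W303, so part of this position is given by that choice. The same position was not counted over all genes tested. The number of calls also depended on other libraries: it was 79, 88 and 82 without CEN.PK2 replicate 1, 3 or 4, and 89, 66, 89 and 86 without W303 replicate 1, 2, 3 or 4. Without D273-10B replicate 1, a library of neither strain that enters through the shared estimate of spread, the filter and the number of genes tested (6200 without it), it was 317. Within the 2 W303 and 2 CEN.PK2 libraries numbered from 69, which include CEN.PK2 replicate 2, 19 genes were called, 15 higher and 4 lower. All 19 were among the 161, and 155 of the 155 called genes that could be tested there had the same sign. These libraries are among those that gave the 161 calls, so the shared sign is no separate check.

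**Figure D1:**
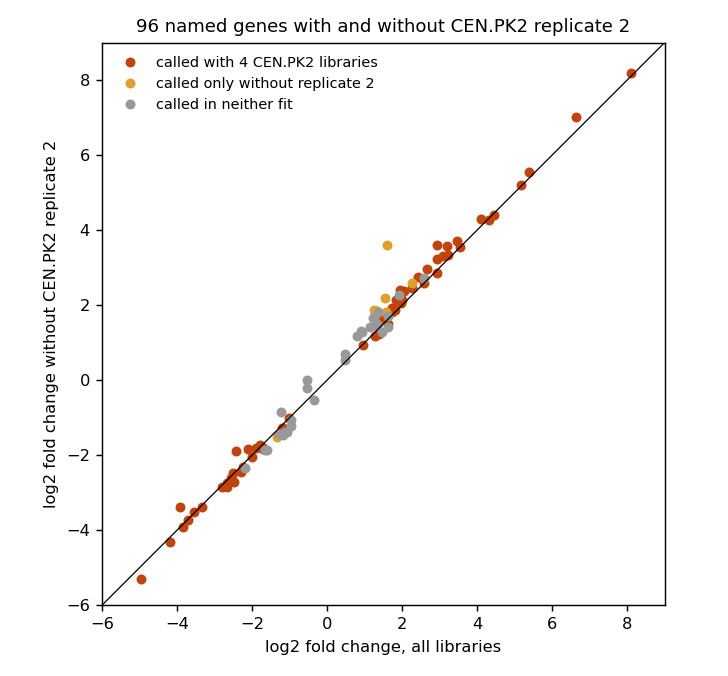
Log2 fold change (W303 minus CEN.PK2) of the 96 named genes with all libraries (horizontal axis) and without CEN.PK2 replicate 2 (vertical axis), 1 point per gene, coloured by the fit in which the gene was called; the line marks equal values. The 8 genes called only without that library include ILV3, which moved from 1.60 to 3.61.

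Genes of nitrogen regulation and allantoin use formed the list with the most calls: of 30 tested, 11 were higher in W303 and 0 lower, with a median log2 fold change of 0.78 against -0.02 over all genes. Over all genes tested, 1.18% were called higher and 1.45% lower, the shares to set beside each list count below. The 11 were the ammonium permease genes MEP1, MEP2 and MEP3, the regulators DAL80, GAT1 and GLN3, the allantoin genes DAL3, DAL5 and DAL7, the glutamate dehydrogenase gene GDH3 and the proline oxidase gene PUT1. The same 30 genes gave 11 calls without CEN.PK2 replicate 2, and 7 without CEN.PK2 replicate 1, 3 or 4 or without W303 replicate 4. They gave 6 calls among 27 genes with counts thinned to the smallest library, and 3 within the libraries numbered from 69. In 9 of the 11 all 4 W303 libraries lay above all 16 libraries of the other 4 strains. That was so for 18 of the 72 genes called higher (25%) and for 0.572% of all genes tested. CEN.PK2 is among those strains, so part of this is given by the call itself. In a culture measured in bulk, more RNA in every cell and more cells with the RNA cannot be told apart.

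MEP2 (YNL142W, chromosome XIV, 357453 to 358952) encodes the high-affinity ammonium permease. It was at 261, 281, 832 and 453 CPM in W303 replicates 1 to 4 and at 3.85, 10.7, 3.11 and 1.13 CPM in CEN.PK2. The lowest W303 library was far above the highest CEN.PK2 library, which was replicate 2. The log2 fold change was 6.65 (SE 0.614, adjusted p by edgeR 1.08e-06), and 7.01 without replicate 2. The other strains reached at most 41.7 CPM, in RM11-1a. MEP3 (YPR138C), a lower-affinity ammonium permease, had a log2 fold change of 2.93 (SE 0.539, adjusted p by edgeR 0.00445) and MEP1 (YGR121C) one of 2.42 (SE 0.405, adjusted p by edgeR 0.00177). In both, CEN.PK2 replicate 2 was the highest CEN.PK2 library, at 28.2 CPM for MEP3 and 35.1 CPM for MEP1, and still below all W303 libraries.

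Among the regulators, both activator genes and 1 repressor gene were higher in W303. DAL80 (YKR034W, chromosome XI, 506898 to 507707), a GATA repressor, was at 11.4, 9.76, 12.3 and 9.15 CPM in W303 and at 0.152, 0.763, 0.0622 and 0.251 CPM in CEN.PK2. All CEN.PK2 libraries were under 1 CPM, and the groups did not overlap. The log2 fold change was 5.39 (SE 0.583, adjusted p by edgeR 1.22e-05), and 5.55 without replicate 2. GAT1 (YFL021W), a GATA activator, was at 95 to 137 CPM in W303 and 7.35 to 51.1 CPM in CEN.PK2, a log2 fold change of 2.20 (SE 0.402, adjusted p by edgeR 0.00428). GLN3 (YER040W), the other activator, was at 13.3 to 21.1 CPM against 1.38 to 6.1 CPM (log2 fold change 1.95, adjusted p by edgeR 0.0212). The GLN3 call ended without CEN.PK2 replicate 3 or 4 or W303 replicate 2 or 4, at an adjusted p of up to 0.0892. URE2, which encodes the anchor of Gln3, and GZF3, the other repressor gene, did not pass the test, with log2 fold changes of 0.66 (adjusted p by edgeR 0.39) and 0.95 (adjusted p by edgeR 0.2).

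DAL3 (YIR032C, chromosome IX, 415030 to 415617), the gene of ureidoglycolate lyase, was at 119, 107, 113 and 89.1 CPM in W303 and at 1.98, 4.58, 4.11 and 4.59 CPM in CEN.PK2. Both groups were tight and did not overlap, and the log2 fold change was 4.45 (SE 0.503, adjusted p by edgeR 2.13e-05), and 4.41 without replicate 2. Its neighbour DAL7 (YIR031C), a malate synthase gene, was called at 1.80 (adjusted p by edgeR 0.0355), and DAL5 (YJR152W), the allantoate permease gene, at 2.20 (adjusted p by edgeR 0.0135). DAL7 lost its call without any 1 of the 4 W303 libraries or CEN.PK2 replicate 1, 3 or 4 (adjusted p up to 0.145) and with a library series block (0.0599), and DAL5 without CEN.PK2 replicate 1 or 4 or W303 replicate 2 (up to 0.0637). GDH3 and PUT1 were called at 1.48 (adjusted p by edgeR 0.0193) and 1.35 (adjusted p by edgeR 0.0269). GDH3 lost its call without CEN.PK2 replicate 1 or 3 or W303 replicate 4 (up to 0.0698), and PUT1 without CEN.PK2 replicate 1, 3 or 4 or W303 replicate 1, 3 or 4 (up to 0.0986). The allantoinase gene DAL1, the allantoin permease gene DAL4 and the allantoicase gene DAL2, all in the same cluster on chromosome IX, had log2 fold changes of -0.49, -0.39 and 0.78 and were not called. The urea permease gene DUR3 was at -1.38 (adjusted p by edgeR 0.152), and the glutamine synthetase gene GLN1 at 1.13 (adjusted p by edgeR 0.227).

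**Figure D2:**
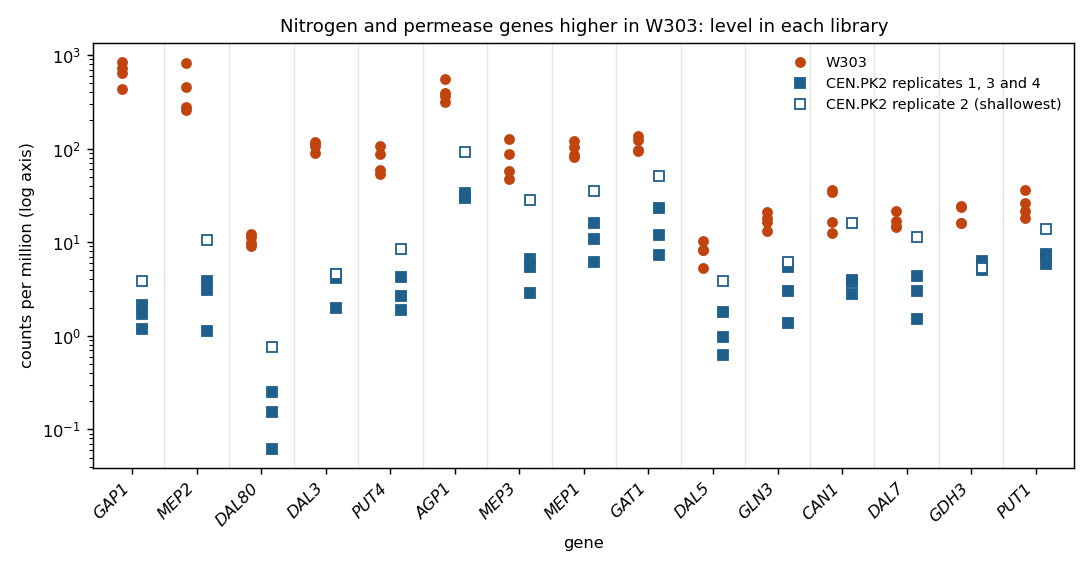
CPM (log axis) of the 15 genes called higher in W303 from the lists of nitrogen regulation and of amino acid permeases, 1 point per library; circles are the 4 W303 libraries, filled squares CEN.PK2 replicates 1, 3 and 4, and open squares CEN.PK2 replicate 2. W303 lies above CEN.PK2 in 14 of the 15, GAP1 shows the widest gap (434 to 843 against 1.19 to 3.81 CPM), and CAN1 alone overlaps, through replicate 2 at 16.01 CPM. The genes were chosen as called, and the groups do not overlap for 144 of all 161 called genes.

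Amino acid permeases gave 4 higher calls and 0 lower among 20 genes tested (median log2 fold change 1.06), against 1.18% and 1.45% of all genes tested. There were 6 higher calls without CEN.PK2 replicate 2, and 3 without CEN.PK2 replicate 1, 3 or 4, without W303 replicate 3 or 4, with a library series block or within the libraries numbered from 69. With only the 8 libraries of both strains in the fit, 4 were higher and 1 lower, and with 7, leaving out CEN.PK2 replicate 2, 11 were higher and 1 lower. That fit of 7 libraries called 997 of 6216 genes, 629 of them higher in W303. GAP1 (YKR039W, chromosome XI, 515063 to 516871), the general amino acid permease gene, had the largest log2 fold change of all genes tested. It was at 434, 734, 843 and 645 CPM in W303 and at 1.72, 3.81, 2.12 and 1.19 CPM in CEN.PK2. All 4 CEN.PK2 libraries were close together, with replicate 2 the highest. The log2 fold change was 8.10 (SE 0.584, adjusted p by edgeR 4.97e-08), 8.20 without replicate 2 and 8.02 within the libraries numbered from 69. BY4741 held 10.9 to 34.8 CPM, RM11-1a 3.59 to 17.8 CPM and D273-10B at most 3.7 CPM, so that W303 stood above each of the other strains.

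PUT4 (YOR348C, chromosome XV, 986899 to 988782), the proline permease gene, was at 59.0, 53.2, 106 and 88.1 CPM in W303 and at 4.26, 8.39, 2.68 and 1.89 CPM in CEN.PK2. The groups did not overlap, and the log2 fold change was 4.09 (SE 0.485, adjusted p by edgeR 3.45e-05), and 4.30 without replicate 2. RM11-1a overlapped W303 in this gene, at 19.6 to 109.5 CPM. AGP1 (YCL025C, chromosome III, 76018 to 77919), a permease of broad range, was at 317, 398, 558 and 364 CPM against 33.6, 92.3, 29.4 and 31.6 CPM. Here CEN.PK2 replicate 2 stood apart from its group but below W303, and the log2 fold change was 2.94 (SE 0.572, adjusted p by edgeR 0.00717), and 3.24 without replicate 2. CAN1 (YEL063C, chromosome V, 31694 to 33466), labelled as mutant in W303, was at 12.4 to 36.1 CPM in W303, and at 3.752, 16.01, 3.92 and 2.77 CPM in CEN.PK2. The groups overlapped through replicate 2. Its log2 fold change of 1.94 (SE 0.481, adjusted p by edgeR 0.0339) was 2.40 without replicate 2, and the call ended without CEN.PK2 replicate 1, 3 or 4 or W303 replicate 3 or 4, at an adjusted p of up to 0.134, and with the library series (66, 69 or 74) as a block, at 0.0542. The amino acid sensor gene SSY1 lay on the other side, at 1.65 to 4.11 CPM in W303 and 5.68 to 10.7 CPM in CEN.PK2, but did not pass the test (log2 fold change -2.12, adjusted p by edgeR 0.134).

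**Figure D3:**
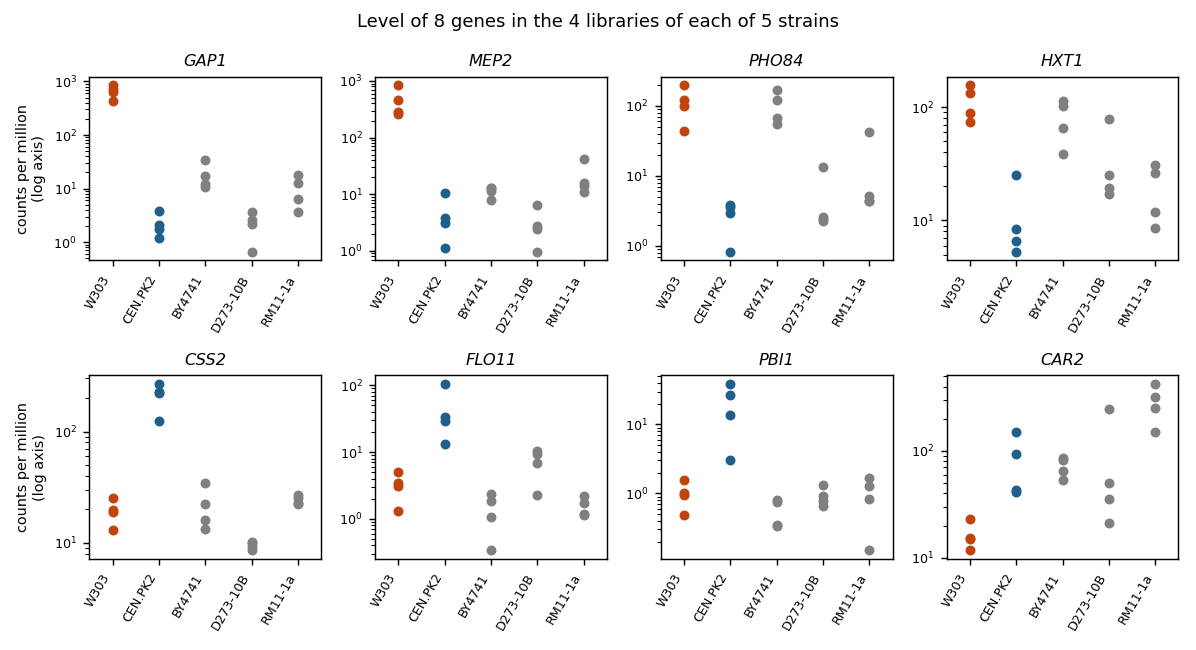
CPM (log axes) of 8 genes in the 4 libraries of each of the 5 strains, 1 point per library. W303 stands above all others for GAP1 and MEP2, CEN.PK2 stands below W303 and BY4741 for PHO84 and HXT1, CEN.PK2 stands above all others for CSS2, FLO11 and PBI1, and W303 overlaps D273-10B in CAR2.

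Genes of arginine synthesis and breakdown were called in both directions, 3 higher and 2 lower of 14 (median 1.05). YER069W (chromosome V, 295410 to 298001), whose product is cut into the acetylglutamate kinase and reductase of arginine synthesis, was at 29.8, 29.7, 67.3 and 69.8 CPM in W303 and at 6.24, 16.01, 4.61 and 3.39 CPM in CEN.PK2. The groups did not overlap, and CEN.PK2 replicate 2 was again the highest of its strain. The log2 fold change was 2.65 (SE 0.497, adjusted p by edgeR 0.00539). ARG8 (YOL140W), the acetylornithine aminotransferase gene, was at 2.0 (adjusted p by edgeR 0.011). CPA1 (YOR303W), a subunit of carbamoyl phosphate synthetase, was at 1.94 (adjusted p by edgeR 0.0462); its call ended without any 1 of 14 libraries, among them every W303 and BY4741 library and CEN.PK2 replicates 1, 3 and 4 (adjusted p up to 0.134). The catabolic genes lay the other way. CAR2 (YLR438W, chromosome XII, 1012501 to 1013775), ornithine transaminase, was at 15.4, 11.7, 14.9 and 22.9 CPM in W303 and at 150.1, 93.8, 41.1 and 43.2 CPM in CEN.PK2. The strains' libraries were fully separate, though CEN.PK2 spread widely, and the log2 fold change was -2.56 (SE 0.53, adjusted p by edgeR 0.0119). CAR1 (YPL111W), arginase, was at 89.2 to 119 CPM against 153 to 212 CPM (log2 fold change -1.21, adjusted p by edgeR 0.0145). CAR2 lost its call without CEN.PK2 replicate 1 or W303 replicate 2 (adjusted p up to 0.0547), and CAR1 without W303 replicate 1 or 2 (up to 0.0619). The list gave 6 higher calls without CEN.PK2 replicate 2 and at least 2 without any other single library.

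Of 23 genes of sulfate assimilation and methionine synthesis, 2 were higher and 2 lower (median 0.20), and without CEN.PK2 replicate 2 there were 3 and 2. The sulfite reductase gene MET10 (log2 fold change 1.37, adjusted p by edgeR 0.0368) and CBF1, a transcription factor gene (0.95, adjusted p by edgeR 0.0382), were higher. MET32, a transcription factor gene (-1.03, adjusted p by edgeR 0.0269), and the sulfate permease gene SUL2 were lower. The SUL2 call held without any 1 library, whereas MET10 lost its call without CEN.PK2 replicate 1, 3 or 4 or W303 replicate 1, 2 or 4 (adjusted p up to 0.138), and MET32 without CEN.PK2 replicate 1 or any 1 W303 library (up to 0.116). CBF1 lost its call without any 1 of 9 libraries, among them all 4 of W303 and CEN.PK2 replicates 1, 3 and 4 (up to 0.14). With a library series block, the adjusted p of MET10 was 0.0599 and that of CBF1 0.0621. Of 8 genes of histidine synthesis, 1 was higher and 1, HIS3, lower (median 1.02), and without CEN.PK2 replicate 2 there were 3 and 1. HIS4 was higher in W303 (log2 fold change 1.84, adjusted p by edgeR 0.0292), a call that ended without W303 replicate 2, 3 or 4 or CEN.PK2 replicate 1, 3 or 4 (adjusted p up to 0.106). None of 14 genes of branched-chain synthesis (median 0.59) and none of 20 of purine synthesis (median 0.78) were called, and without CEN.PK2 replicate 2 the numbers were 3 and 2, all higher in W303. ILV3 (YJR016C), dihydroxyacid dehydratase, was at 77.5, 234, 943 and 670.0 CPM in W303 and at 29.2, 572, 39.5 and 19.7 CPM in CEN.PK2. Replicate 2 lay within the W303 range and far above the other CEN.PK2 libraries, and the log2 fold change was 1.60 (adjusted p by edgeR 0.33) with it and 3.61 (adjusted p by edgeR 0.0349) without it.

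Phosphate genes were the next group. Of 24 tested, 6 were higher in W303 and 0 lower (median log2 fold change 0.69), against 1.18% and 1.45% of all genes tested. There were 3 calls without CEN.PK2 replicate 1, 3 or 4 and 4 without W303 replicate 1 or 2. With thinned counts 4 of 21 were called, and within the libraries numbered from 69 only PHO84 was. Without CEN.PK2 replicate 2 there were 6. In phosphate-poor medium the factor Pho4 is known to raise several of these genes, but not all of them. PHO84 (YML123C, chromosome XIII, 24037 to 25800), the high-affinity phosphate transporter gene, was at 196, 121, 98.7 and 43.4 CPM in W303 and at 3.55, 3.81, 2.93 and 0.817 CPM in CEN.PK2. No W303 library overlapped CEN.PK2, with CEN.PK2 replicate 2 among its strain, and the log2 fold change was 5.16 (SE 0.81, adjusted p by edgeR 0.000965), and 5.2 without replicate 2. BY4741 was at 55.5 to 171 CPM, within reach of W303, and D273-10B at 2.25 to 13.2 CPM. PHO5 (YBR093C, chromosome II, 429548 to 430951), a repressible acid phosphatase, was at 84.0, 60.5, 58.6 and 45.03 CPM against 10.6, 20.6, 11.1 and 4.53 CPM. It did not overlap either, and its log2 fold change was 2.26 (SE 0.292, adjusted p by edgeR 0.000106), and 2.45 without replicate 2. The neighbouring acid phosphatase gene PHO3 was at 1.81 (adjusted p by edgeR 0.0205), a call that ended without W303 replicate 2 (adjusted p 0.0619).

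SPL2, a regulator of low-affinity phosphate uptake, was called at 2.93 (adjusted p by edgeR 0.0246), the glycerophosphodiester permease gene GIT1 at 1.96 (adjusted p by edgeR 0.016), and the phosphatase gene PHM8 at 1.79 (adjusted p by edgeR 0.0269). All 3 calls ended without CEN.PK2 replicate 1, 3 or 4, SPL2 also without W303 replicate 1 and with a library series block (0.0596), and PHM8 also without any 1 W303 library (adjusted p up to 0.0912, 0.0762 and 0.0892). The signalling genes PHO4, PHO80, PHO81 and PHO85 had log2 fold changes of -0.50 to 0.01 and were not called. The Pho4 core CACGTG, on either strand, was in the upstream window of 2 of the 6 called genes (PHO5 and SPL2), of 12 of the 18 not called and of 4.09% of all genes.

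Of 17 genes of sodium, potassium and proton transport, 3 were higher in W303 and 0 lower (median 0.59), as they were without CEN.PK2 replicate 2, and all 3 belong to the ENA cluster of sodium-exporting ATPase genes on chromosome IV. ENA2 (YDR039C, 531307 to 534582) was at 20.8, 22.8, 24.2 and 38.3 CPM in W303 and at 1.62, 5.34, 1.93 and 1.07 CPM in CEN.PK2. The groups did not overlap, and the log2 fold change was 3.46 (SE 0.546, adjusted p by edgeR 0.000965), and 3.7 without replicate 2. ENA5 was at 3.09 (adjusted p by edgeR 0.00181) and ENA1 at 1.62 (adjusted p by edgeR 0.0256). These copies share 86.9% to 99.3% of their windows of 75 bases with other loci. Reads cannot be assigned to a copy with certainty, and the number of copies in each strain is not given in the sources used here. ENA1 lost its call without CEN.PK2 replicate 1 or 3 or W303 replicate 3 or 4 (adjusted p up to 0.0962).

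Of 21 genes of hexose transport and sensing, 1 was higher in W303 (4.76%) and 0 lower, against 1.18% and 1.45% of all genes tested. HXT1 (YHR094C, chromosome VIII, 290913 to 292625), the low-affinity glucose transporter gene, was at 73.8, 88.4, 132 and 155 CPM in W303 and at 5.27, 25.2, 6.60 and 8.48 CPM in CEN.PK2. The ranges of the strains were separate, with CEN.PK2 replicate 2 the highest of its strain, and the log2 fold change was 3.20 (SE 0.514, adjusted p by edgeR 0.00121), and 3.57 without replicate 2. HXT3, another low-affinity transporter gene, was at 1.48 (adjusted p by edgeR 0.225), and 2.28 without replicate 2 (adjusted p by edgeR 0.0526). None of 34 genes of glycolysis and ethanol formation was called.

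Further genes higher in W303 lay outside these lists. IRC7 (YFR055W, chromosome VI, 264204 to 265226), a cysteine beta-lyase gene, was at 56.9, 94.0, 53.0 and 51.3 CPM in W303 and at 6.44, 6.10, 5.42 and 1.01 CPM in CEN.PK2, a log2 fold change of 3.54 (SE 0.451, adjusted p by edgeR 9.53e-05). No other strain exceeded 35.5 CPM. FDC1 (YDR539W) and its neighbour PAD1, which act together in decarboxylating cinnamic acids, were at 3.23 (SE 0.529, adjusted p by edgeR 0.00136) and 2.16. The stress gene HSP12 was at 55.6 to 144 CPM against 9.21 to 18.3 CPM (log2 fold change 2.58, adjusted p by edgeR 0.0244), and its call ended without CEN.PK2 replicate 1 or 3 or W303 replicate 1 or 4 (adjusted p up to 0.089). The pheromone arrest gene FAR1 was at 1.5 (adjusted p by edgeR 0.00844).

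ADH7 and SEO1 are described although outside the naming rule, a choice made after seeing their values, because CEN.PK2 held almost no counts of them. ADH7 (YCR105W, chromosome III, 309070 to 310155), an alcohol dehydrogenase gene, had 0, 0, 1 and 2 counts in the CEN.PK2 libraries and 5.82 to 11.8 CPM in W303, and was at least 12.4-fold higher in W303 against the mean per-library floor of 3 counts. SEO1 (YAL067C, chromosome I, 7235 to 9016), a putative permease gene, had 0 counts in all 4 CEN.PK2 libraries and 0.963 to 3.08 CPM in W303, at least 2.84-fold higher. ARN2 (YHL047C, chromosome VIII, 8351 to 10213), a siderophore transporter gene at 2.31 to 4.33 CPM in W303, was at or under 3 counts in each CEN.PK2 library and at least 4.64-fold higher. The ARN2 call (adjusted p by edgeR 0.0244) ended without CEN.PK2 replicate 1, 3 or 4 or W303 replicate 2 or 4 (up to 0.0902). Floors and bounds cover counting error only.

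Among genes higher in CEN.PK2, FLO11 (YIR019C, chromosome IX, 389572 to 393675), the adhesin of filamentous and invasive growth, was at 3.39, 1.31, 3.08 and 5.06 CPM in W303 and at 29.6, 105, 33.9 and 13.3 CPM in CEN.PK2. The ranges were separate, replicate 2 was the highest CEN.PK2 library, and the log2 fold change was -3.92 (SE 0.568, adjusted p by edgeR 0.000485). It was -3.38 without replicate 2. FLO11 shares 21.8% of its windows with another locus. In the list of 16 flocculin and cell separation genes it was the only one lower in W303, and the cell separation glucanase gene DSE4 was higher (log2 fold change 1.28, adjusted p by edgeR 0.0244), a call lost without CEN.PK2 replicate 1 or 3 or W303 replicate 3 or 4 (adjusted p up to 0.0998). The cell wall mannoprotein gene TIR3 was at 11.9 to 25.1 CPM against 55.3 to 124 CPM (log2 fold change -2.51, adjusted p by edgeR 0.0153), and lost its call without W303 replicate 1 or 2 (up to 0.068). Of the 25 mannoprotein genes tested, 2 were higher and 2 lower. PIR3, a cell wall protein gene, was higher in W303, at 72.8 to 89.2 CPM against 6.41 to 26.7 CPM (log2 fold change 1.97, adjusted p by edgeR 0.0153), a call lost without CEN.PK2 replicate 1 or 4 (up to 0.0595).

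PBI1 (YPL272C, chromosome XVI, 26611 to 28164) had the largest fall. It was at 1.00, 0.939, 1.54 and 0.482 CPM in W303 and at 26.8, 3.05, 13.8 and 38.8 CPM in CEN.PK2. The groups did not overlap, and replicate 2 was the CEN.PK2 library nearest to W303. The log2 fold change was -4.96 (SE 0.657, adjusted p by edgeR 0.000142), and -5.30 without replicate 2. CSS2 (YFR020W, chromosome VI, 192737 to 193435) was at 18.8, 19.6, 25.2 and 13.0 CPM in W303 and at 220.1, 268, 227 and 124 CPM in CEN.PK2. Its groups did not overlap, and its log2 fold change was -3.72 (SE 0.302, adjusted p by edgeR 2.07e-07), and -3.73 without replicate 2. MOR1 (YDR366C, chromosome IV, 1212438 to 1212836) was at 22.2 to 43.9 CPM in W303 and at 608, 560.5, 289.8 and 614 CPM in CEN.PK2 (log2 fold change -4.21, SE 0.71, adjusted p by edgeR 0.00181, and -4.32 without replicate 2), and shares 33.8% of its windows with another locus.

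HBN1 (YCL026C-B) and its neighbour FRM2, of the nitroreductase family, were lower in W303, by -2.82 (adjusted p by edgeR 0.000647) and -1.71. NFG1 was at -2.68 and YGR127W at -2.67, with adjusted p by edgeR of 0.000802 and 0.000746. In HBN1, NFG1 and YGR127W, W303 was lower also than D273-10B and RM11-1a, whose libraries held at least 53.6 and 32.8, 43.5 and 48.1, and 38.1 and 58.1 CPM. BY4741 overlapped W303 in HBN1, at 8.58 to 15.2 against 6.38 to 14.4 CPM. In NFG1 and YGR127W, W303 lay below BY4741 too. SUL2 (YLR092W), a sulfate permease gene, was at 5.22, 3.66, 4.11 and 3.85 CPM in W303 and at 11.9, 32.8, 10.2 and 11.5 CPM in CEN.PK2 (log2 fold change -2.11, SE 0.311, adjusted p by edgeR 0.000565). The thiamine synthesis gene THI4 was at -2.24 (adjusted p by edgeR 0.00879). AQY2, an aquaporin gene, was called at -2.44 (adjusted p by edgeR 0.0436), but it overlaps YLL053C on the same strand and its call ended without any 1 of 11 libraries, among them all 4 of W303 and CEN.PK2 replicates 2, 3 and 4 (adjusted p up to 0.161), and with a library series block (0.0582). YLR157W-E shares 72.5% of its windows with another locus, and was at 1.93 to 12.3 CPM against 39.4 to 117 CPM (log2 fold change -3.86, adjusted p by edgeR 0.0356). That call ended without CEN.PK2 replicate 1 or 4 or any 1 W303 library (adjusted p up to 0.118). The small nucleolar RNA snR68 was at -2.50 (adjusted p by edgeR 0.00599). Of 70 snR identifiers, counted after their values were seen, 6 were lower and 0 higher (median -1.02). Such RNAs are mostly not polyadenylated, and how much of them the protocol captured was not tested.

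**Figure D4:**
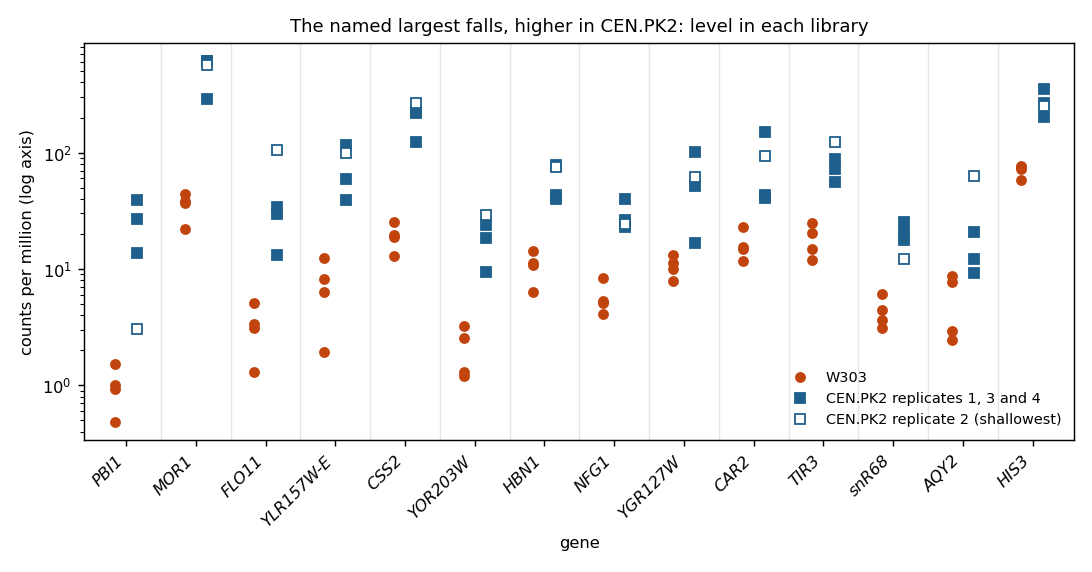
CPM (log axis) of the 14 named genes with the largest falls in W303, 1 point per library, with CEN.PK2 replicate 2 as open squares. The genes were chosen among those whose groups do not overlap, so the separation in each is given by that choice. Replicate 2 is the lowest CEN.PK2 library in PBI1 (3.05 CPM) and the highest in FLO11 (105 CPM).

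The list for the genotype labels holds MAL12, MAL32 and other MAL genes of the reference in place of the labelled MAL2-8c. It gave 5 calls among 12 genes, 1 higher and 4 lower in W303, with and without CEN.PK2 replicate 2. HIS3 (YOR202W, chromosome XV, 721946 to 722608), for which both strains carry mutant alleles, was at 72.8, 74.4, 76.6 and 57.6 CPM in W303 and at 202, 252, 264 and 353 CPM in CEN.PK2. The strains' ranges did not meet, and the log2 fold change was -2.31 (SE 0.487, adjusted p by edgeR 0.0135), and -2.46 without replicate 2. The identifier YOR203W, which had no match in the annotation used, was also lower, at -3.56 (adjusted p by edgeR 0.0119), and lost its call without W303 replicate 2 (adjusted p 0.0547). TRP1 (YDR007W, chromosome IV, 461842 to 462516) was at 8.49, 9.48, 13.4 and 9.63 CPM in W303 and at 27.0, 31.3, 23.2 and 26.2 CPM in CEN.PK2. Both strains were below all libraries of the other 3 strains, which held 42.7 CPM or more, and W303 was lower than CEN.PK2 (log2 fold change -1.73, SE 0.269, adjusted p by edgeR 0.000929, and -1.79 without replicate 2). LEU2 and URA3 were not called, at 0.46 (adjusted p by edgeR 0.461) and -0.35 (adjusted p by edgeR 0.767), and both had counts in every W303 and CEN.PK2 library. CAN1, described with the permeases, was the only gene of the list that was higher in W303. The other 2 calls were the maltase genes MAL12 and MAL32, which neither label names and which share much of their sequence with another locus.

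The CEN.PK2 label also names MAL2-8c, a maltose locus allele known for maltase expression without maltose, and SUC2. The maltase genes MAL32 and MAL12 were at 2.57 to 5.63 and 3.08 to 5.61 CPM in W303 and at 8.04 to 22.1 and 7.86 to 21.4 CPM in CEN.PK2. Neither overlapped, and their log2 fold changes were -1.90 (SE 0.308, adjusted p by edgeR 0.00127) and -1.80 (SE 0.307, adjusted p by edgeR 0.00191). They share 74.9% and 74.5% of their windows with another locus, so reads cannot be assigned to either with certainty. The regulator gene MAL33 (log2 fold change -1.23, adjusted p by edgeR 0.0571), the transporter genes MAL11 and MAL31 and the regulator gene MAL13 were not called. The invertase gene SUC2 was at 53.9 to 73.4 CPM in W303 and 3.33 to 67.9 CPM in CEN.PK2 and was not called (0.89, adjusted p by edgeR 0.35).

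Several lists held no call. Among 56 genes of small ribosomal subunit proteins, 0 were called and 1 had a log2 fold change above 0 (median -0.80). After a correction for gene length, that median was -0.08, and the median of 11 histone genes went from -0.68 to 0.05. These are short genes, and the slopes with gene length given above differ most in CEN.PK2 replicate 4. The correction takes out any shift shared by genes of similar length, whatever its source, and the cause was not tested. The genes called lower in W303 had a median exon length of 783 bases, those called higher 1509 and all tested 1230. The medians of the nitrogen, permease and phosphate lists after that correction were 0.62, 0.78 and 0.70, with 9, 4 and 7 calls. Ergosterol synthesis (26 genes), the respiratory chain (38), mitochondrial DNA (9), galactose use (8) and PAU genes (12) also had 0 calls. Over all genes tested 2.63% were called, so 0 calls in lists of these sizes do not set them apart.

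**Figure D5:**
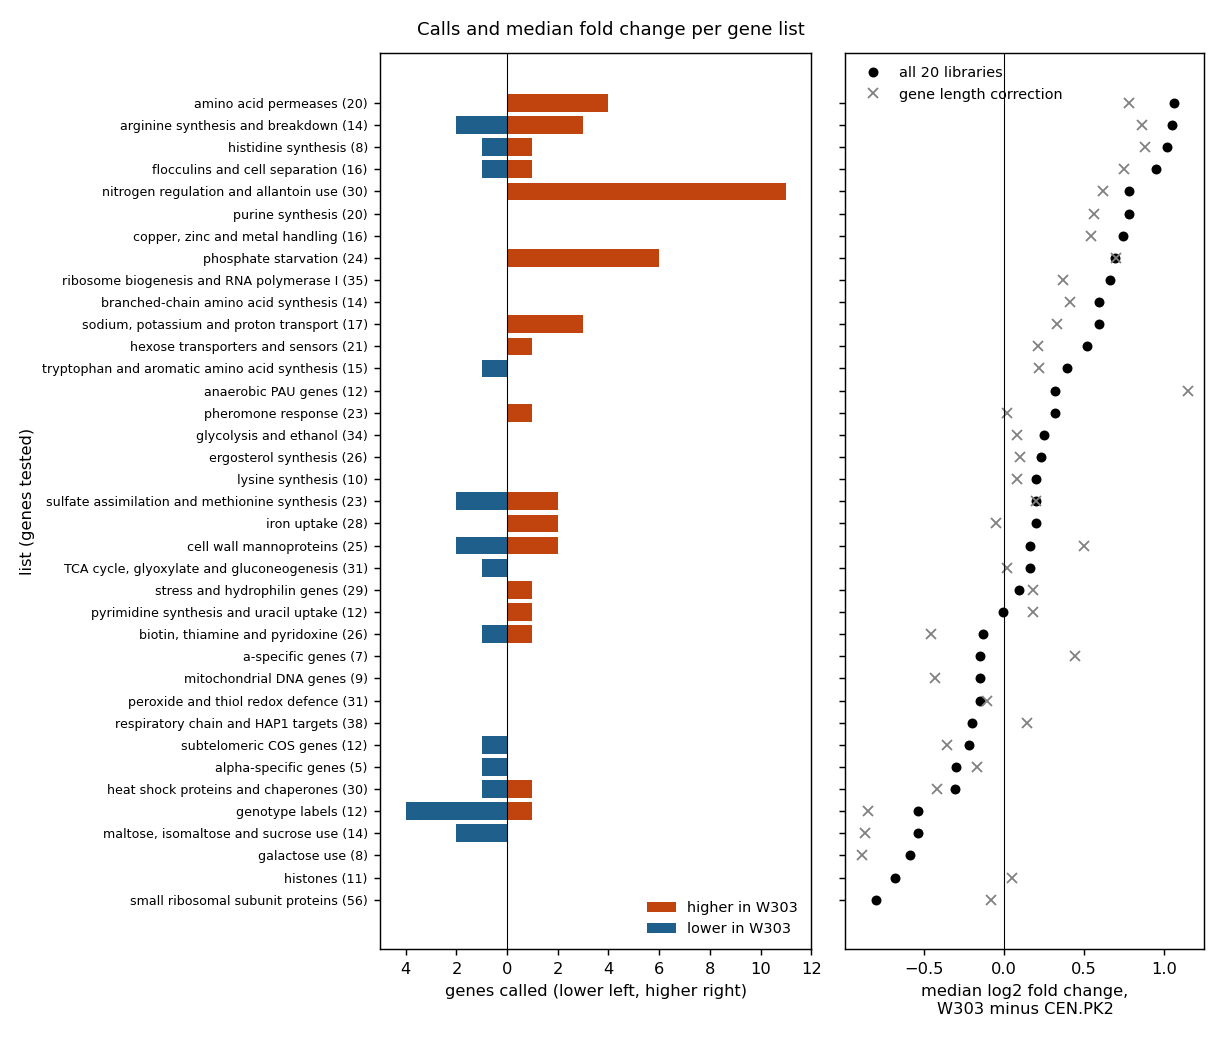
Number of genes called per list (left; higher in W303 to the right, lower to the left, genes tested in brackets) and median log2 fold change of the list (right) with all 20 libraries (points) and after the gene length correction (crosses). Nitrogen regulation has the most calls (11 of 30), and the median of small ribosomal subunit genes moves from -0.80 to -0.08.

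Called genes were more often near chromosome ends than tested genes in general. Of the 72 higher and the 79 lower genes with a nuclear position, 18.1% and 19% lay within 25 kb of an end, against 4.71% of 5754 tested genes, and 8.33% and 10.1% lay within 10 kb, against 1.6%. Called neighbours in the same direction formed 9 runs that held 19 of the 151 called nuclear genes. How many runs genes picked without regard to position would form was not counted. Next to the ends lay SEO1 with YAL065C on chromosome I, and ADH7 with RDS1 on chromosome III, all higher in W303. PAD1 with FDC1 on chromosome IV (higher) and ECM34 with YHL042W on chromosome VIII (lower) also lay within 25 kb of an end. The remaining runs were PHO3 with PHO5, HBN1 with FRM2, the 3 ENA genes, DAL7 with DAL3 (which starts just inside that distance), and YLL053C with AQY2. The ENA genes share most of their windows and YLL053C overlaps AQY2, so the members of these runs are not separate measurements.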

How the data were processed

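The authors deposited 1 table of raw counts per gene for all 20 libraries, with no normalization, per the file headers; STAR and Salmon are named in the submitters' processing notes without a version or role, and the strand setting is not given in the sources used here. Members and gene lists were chosen with earlier results of these data known. Counts were tested with edgeR 4.0.16 (R 4.3.3): filterByExpr by strain, TMM factors, strain as the only term, all 20 libraries in 1 quasi-likelihood fit so that the 5 strains share the estimate of spread, and the contrast W303 minus CEN.PK2 at a Benjamini-Hochberg adjusted p of 0.05. CPM are counts over the library total, without TMM. Fold changes and the log2 CPM used for correlations and length slopes are TMM-scaled. The floor is 3 counts per library, 0.704 CPM on average in CEN.PK2. Total counts of 1311322 to 22979469 set the precision, and no molecular identifiers are mentioned. Coordinates are those of the R64 reference of S288C, to which 6047 of 7127 identifiers matched. Shared windows are the share of a gene's 75-base windows found at another locus there. The gene length correction subtracts a spline (4 degrees of freedom) over log2 exon length. Named were the genes of the list for the genotype labels, its MAL genes included. Also named were the 14 largest rises and 14 largest falls among called genes that did not overlap and had a higher mean of at least 10 CPM. Per list, up to 4 called genes with the smallest adjusted p were named, or without a call the 2 with the largest change. Called neighbours were named too. Other members named were picked after their values were seen. DESeq2 1.42.0, other filters, blocks and left-out libraries were alternatives. The fit was tested on simulated data.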

Additional observations from a re-analysis of the deposited data

Results flagged for a closer look

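In 191 strain and gene combinations of 4 libraries, 19 had 1 library whose gap to its nearest neighbour exceeded Dixon's critical value, which chance gives in about 1 in 20 groups. CEN.PK2 replicate 2 was the high library in CAN1 (16 CPM, the others 2.77 to 3.92), HXT1 (25.2, the others 5.27 to 8.48), AGP1 (92.3, the others 29.4 to 33.6) and MEP3 (28.2, the others 2.89 to 6.69). It was also high in ILV3 (572 CPM, the others 19.7 to 39.5), SUL2 (32.8, the others 10.2 to 11.9), CTR3 (6.1, the others 2.59 to 2.89) and GIT1 (6.1, the others 1.01 to 1.62). The CTR3 and GIT1 values rest on 8 counts each. The same library was low in UPC2 (6.86 CPM, the others 18.8 to 20.7) and COX5B (9.15, the others 12.9 to 13.1), on 9 and 12 counts.

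CEN.PK2 replicate 3 was low in MOR1 (290.0 CPM, the others 561 to 614), and CEN.PK2 replicate 4 in CBF1 (4.27, the others 8.72 to 9.15). W303 replicate 3 was high in GDH1 (1560.0 CPM, the others 1080.0 to 1100.0), ARO8 (289, the others 207 to 218) and ALD5 (295, the others 203 to 218). W303 replicate 2 was high in IRC7 (94.0 CPM, the others 51.3 to 56.9) and DBP2 (1290.0, the others 574 to 680.0), W303 replicate 4 in MAL31 (10.1, the others 3.05 to 4.11) and W303 replicate 1 in the mitochondrial 15S_RRNA (4.22, the others 0.482 to 0.939).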

How the results depend on the processing

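The count of 161 calls became 106 with genes of at least 10 CPM, 997 with only the 7 libraries left without the shallowest, 74 with counts thinned to the smallest library, 19 within the libraries numbered from 69, 249 after the gene length correction and 367 by DESeq2's test. Leaving out 1 library at a time gave 66 to 398 calls. The replicate numbers did not pair the libraries (correlations of same-numbered deviations 0.211, -0.069, -0.317 and 0.234), and the replicate block gave 154 calls. The share of calls that were higher in W303 was 44.7%, and 54.8% with a library series block, 53.3% with only the 8 libraries and 63.1% with only 7. Over 32 alternatives, 15 named genes kept their call in each: AGP1, YER069W, CSS2, DAL3, DAL80, ENA2, GAP1, HBN1, HXT1, IRC7, MEP2, MOR1, PHO84, PUT4 and YGR127W. No called named gene reversed in them. Genes that were not called did: URA3 (0.18 without CEN.PK2 replicate 4, and -0.54 to 0.18 over all left-out libraries), MAL13 (-0.05 after the gene length correction, -0.02 with the replicate block added), and ATX1 (0.07) and RPS29A (0.27) within the libraries numbered from 69. The causes were not tested. Depth limits low genes most in CEN.PK2 replicate 2 and W303 replicate 3, where 3 counts are 2.29 and 1.54 CPM.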
